A study of Mus musculus with 4 samples.

Results

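The 9 genes Fgf1, Fgf3, Fgf4, Fgf7, Fgf8, Fgf9, Fgf10, Fgf18 and Fgf20, which encode fibroblast growth factors used in tooth development, were followed across cell types, stages and jaws of the mouse molar. They were chosen by symbol and all 9 were found among the 32285 genes counted in each library. Single-cell RNA sequencing covered 4 libraries of wild-type C57BL/6J molars (genotype WTB6): maxillary and mandibular molars from embryos at E15.5 (the embryonic day) and maxillary and mandibular molars at from pups at postnatal day 1 (P1). Each group was a single library made from 6 pooled tooth organs, without transgene or treatment. The labels give the embryos' age as E15 and the protocol as E15.5, and the protocol gives the pups as P0/P1. Stage and library, or jaw and library, therefore cannot be told apart, and every interval below is a 95% interval for counting error only.

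Fibroblast growth factors (FGFs) carry signals back and forth between the dental epithelium and the mesenchyme beneath it. The epithelial signaling center called the enamel knot is known for Fgf3, Fgf4, Fgf9 and Fgf20, which act on receptors of the mesenchyme and on the knot's surroundings. The dental papilla, the mesenchyme that gives rise to odontoblasts and pulp, is known for Fgf3 and Fgf10, which signal to the epithelium through epithelial isoforms of Fgfr1 and Fgfr2. Fgf7 and Fgf18 belong to the mesenchyme around the tooth and the forming bone, Fgf8 to the oral epithelium before the bud forms, and Fgf1 is a widely used ligand that binds all FGF receptors.

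The libraries held 109723360 UMIs (E15.5 maxillary), 86659227 (E15.5 mandibular), 128812956 (P1 maxillary) and 139873101 (P1 mandibular), where a UMI marks 1 captured RNA molecule. Barcodes with at least 1000 UMIs numbered 10073, 6911, 17040 and 16810 in this order, which is kept throughout. The P1 libraries shared 7131 of their deposited barcodes, against 28 to 70 between any other pair. The 6690 shared barcodes of the P1 mandibular library with at least 1000 UMIs were left out, which kept 10120. A shared barcode had a median of 12088 UMIs in the P1 maxillary library and 2870 in the P1 mandibular library, whereas barcodes of their own had medians of 2318 and 8617.5. After filters on mitochondrial content and doublets, 7675, 5003, 12560 and 7311 cells remained, with medians of 10284, 12962, 4564 and 11115 UMIs.

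Most of the dental cells of the P1 maxillary library carried shared barcodes. Of its 2764 papilla-like cells 2734 did, of its 302 odontoblast-like cells 295, of its 343 ameloblast-like cells 336, and of its 139 enamel knot-like cells 132. Which jaw these cells came from was not settled by the files, and every P1 maxillary value of these classes rests on them. Levels in cells with barcodes of their own are given beside the results where enough such cells remained. In the P1 maxillary library the 7 odontoblast-like, 7 ameloblast-like and 7 knot-like cells with barcodes of their own were too few for a level. Hand2, a transcription factor of the mandibular arch, was at 0 UMIs in the papilla-like cells of the E15.5 maxillary and the P1 maxillary library, the latter with an upper limit of 0.0985 CPM (UMIs per 1000000 UMIs of the class). In the mandibular papilla-like cells Hand2 was at 180 CPM in the E15.5 library and at 3.14 CPM in that of P1.

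Clusters were named from marker genes that did not include FGFs, and FGF genes were also kept out of the clustering. Epithelium-like cells numbered 698, 91, 1665 and 1370, and mesenchyme-like cells 4971, 2709, 6945 and 4196. Papilla-like cells, named from 8 markers that include Msx1, Pax9, Lhx6 and Barx1, numbered 257, 79, 2764 and 2317. These markers were not all highest there, since at P1 in the maxillary library Pax9 was at 81.9 CPM in papilla-like cells and 224 CPM in other mesenchyme, and Msx1 at 212 CPM in papilla-like and 294 CPM in follicle-like cells. Enamel knot-like cells numbered 28, 41, 139 and 86. All 6 knot markers were detected in the E15.5 maxillary knot-like cells. The E15.5 mandibular ones joined a subcluster of 29 cells with 3 markers and another of 12 cells with 5. Dkk4, the marker most particular to the knot by background knowledge, was at 80.5 CPM in the first library but at 5 UMIs, 1 UMI and 0 UMIs in the others, while Shh lay at 899, 408, 843 and 1251 CPM. At P1 Shh was not particular to these cells, with 663 and 587 CPM in ameloblast-like cells and 214 and 218 CPM in other epithelium, and 3 of the 6 markers reached 10% of the P1 maxillary knot-like cells. At P1 the name therefore says only that the naming rule was met. Odontoblast-like cells (302 and 138) and ameloblast-like cells (343 and 728) were named at P1 only. The libraries also held muscle, glia, endothelium, pericytes, bone, tendon and blood cells, so the tooth organs were dissected with neighbouring tissue.

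Of the members, Fgf10 had the most UMIs (13509 over the 4 libraries), followed by Fgf3 (6122), Fgf18 (5376), Fgf7 (4310), Fgf1 (3624) and Fgf9 (1866). Fgf20 (220), Fgf4 (108) and Fgf8 (95) were sparse. These counts are from the 3' end of transcripts and were not compared per length, since 3' tags do not scale with it. As a background level, the immune-like and erythroid-like cells, which should lack these ligands, held between 0 and 3.83 CPM of every member in every library.

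The promoters of the 2 papilla ligands and of the 2 leading knot ligands are shown because members of each pair shared a cell type. Each run is the 250 bases before the RefSeq start in GRCm38.p6, plus strand, 5′ to 3′. Capitals mark CAAAG, the reverse of the TCF/LEF core CTTTG through which Wnt signaling acts on its targets.
Fgf3, chr7:144838362-144838611: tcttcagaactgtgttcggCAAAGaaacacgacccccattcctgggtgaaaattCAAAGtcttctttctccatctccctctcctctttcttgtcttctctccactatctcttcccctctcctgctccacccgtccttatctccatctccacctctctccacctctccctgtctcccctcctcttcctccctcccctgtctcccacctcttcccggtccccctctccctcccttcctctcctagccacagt
Fgf10, chr13:118714449-118714698: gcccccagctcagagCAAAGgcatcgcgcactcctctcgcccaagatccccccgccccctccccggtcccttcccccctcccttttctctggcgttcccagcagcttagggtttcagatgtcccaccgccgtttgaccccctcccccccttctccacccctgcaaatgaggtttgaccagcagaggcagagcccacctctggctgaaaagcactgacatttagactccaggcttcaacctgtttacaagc
Fgf4, chr7:144861136-144861385: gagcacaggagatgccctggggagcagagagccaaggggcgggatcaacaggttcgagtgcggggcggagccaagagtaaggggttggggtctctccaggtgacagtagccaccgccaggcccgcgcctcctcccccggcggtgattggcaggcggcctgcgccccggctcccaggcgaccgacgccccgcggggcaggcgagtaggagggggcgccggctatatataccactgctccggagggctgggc
Fgf9, chr14:58072436-58072685: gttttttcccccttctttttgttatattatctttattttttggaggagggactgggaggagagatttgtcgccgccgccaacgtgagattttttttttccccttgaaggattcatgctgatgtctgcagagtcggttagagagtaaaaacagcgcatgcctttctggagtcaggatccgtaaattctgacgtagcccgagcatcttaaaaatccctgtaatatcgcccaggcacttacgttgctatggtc
Searched on both strands, CTTTG occurred 2 times in the Fgf3 window, 231 and 196 bases before the start, and 1 time in that of Fgf10, 235 bases before it. It occurred 2 times in the window of Fgf7 and was not found in those of Fgf4, Fgf9 and Fgf18. Of all 32851 RefSeq promoters of this length, 48.6% held it, so that a match is a common event. The Msx core TAATTG, held by 7.17% of all promoters, occurred among the 6 members with an entry in Fgf7 alone. The guanine and cytosine content of the 6 windows ran from 43.6% in Fgf7 and 44.8% in Fgf9 over 55.2% in Fgf3, 61.2% in Fgf10 and 71.2% in Fgf4 to 77.2% in Fgf18. Fgf1, Fgf8 and Fgf20 had no entry in the promoter table.

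Fgf3 and Fgf4 are neighbours on mouse chromosome 7 on the plus strand. In the GENCODE M21 annotation (GRCm38) Fgf3 spans chr7:144838083-144844436 and Fgf4 spans chr7:144847367-144865243, leaving 2930 bases between them, and Fgf15 follows 31287 bases further. Fgf10 spans chr13:118669791-118792115. Fgf9 spans chr14:58070547-58112720. All 4 promoter windows printed above lie inside these spans.

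**Figure D1:**
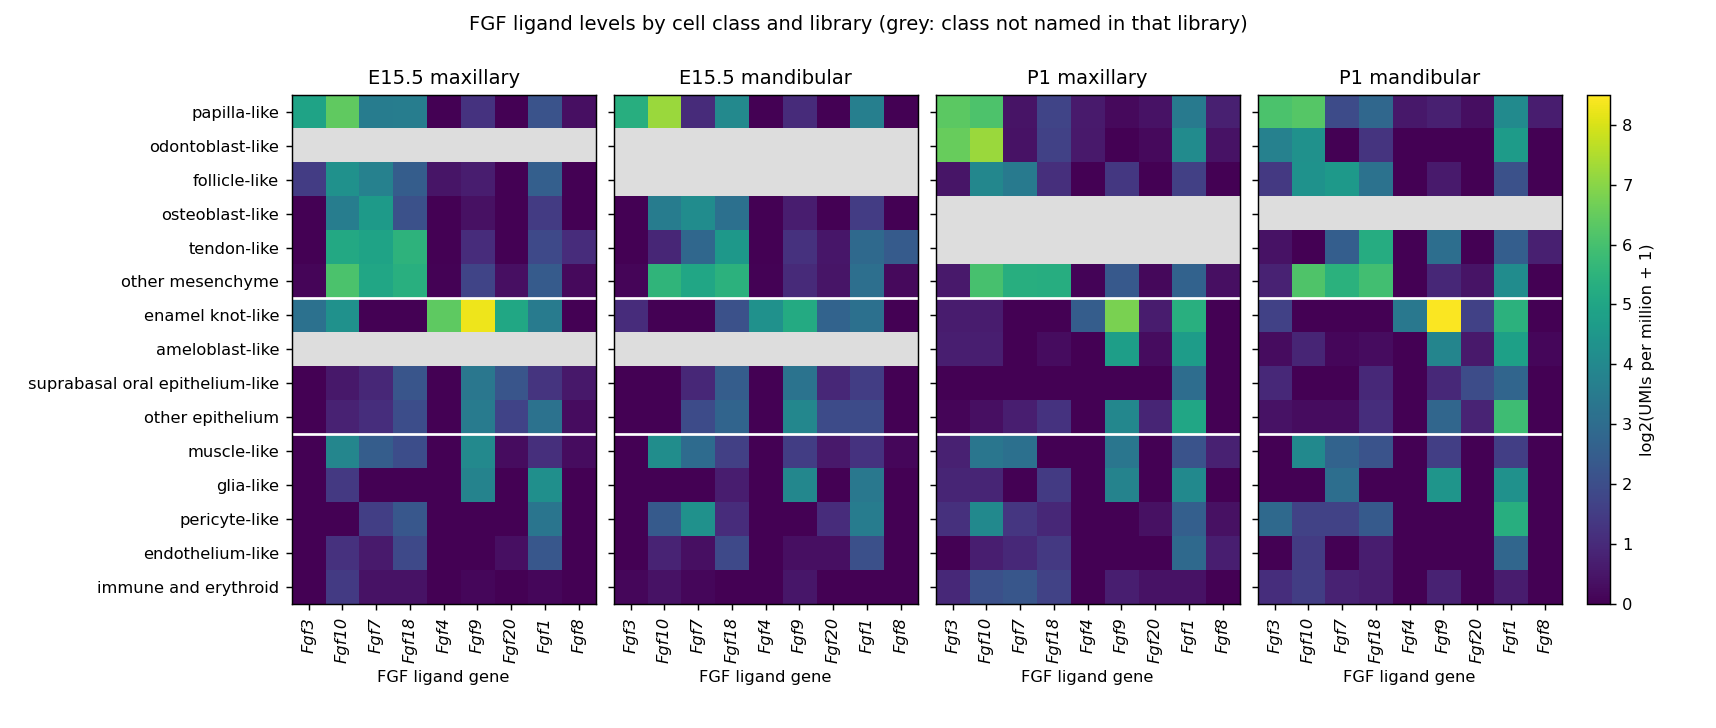
Level of each of the 9 FGF ligands in each named cell class of the 4 libraries, as log2(CPM + 1), where CPM is UMIs per 1000000 UMIs of the class; grey marks a class not named in that library. Fgf3 stood highest in papilla-like and odontoblast-like cells, Fgf4 and Fgf9 in enamel knot-like cells, and Fgf7 and Fgf18 in mesenchyme outside the papilla.

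The first comparison set epithelium against mesenchyme within each library, the question being which tissue layer carried each ligand. Fgf7, Fgf10 and Fgf18 were the ligands of the mesenchyme, and Fgf9 and Fgf20 those of the epithelium, in all 4 libraries. Fgf3 was higher in mesenchyme in 3 of them, while its direction in the E15.5 mandibular library was not settled. For Fgf20 at P1 the epithelial side rested on few UMIs. Of its UMIs in the P1 maxillary library, 62.6% lay in unnamed cells, at 12.8 CPM against 0.609 CPM in epithelium-like cells. In the P1 maxillary library 8 of its 11 epithelial UMIs lay in cells with barcodes of their own (4.12 CPM, against 0.109 CPM in mesenchyme), while among cells with shared barcodes the epithelium stood at 0.186 CPM and the mesenchyme at 0.273 CPM, the other direction. In the E15.5 maxillary library, 3 of 8 members with at least 20 UMIs were at least 2-fold higher in epithelium and 4 in mesenchyme, where 13.0% and 20.6% of all 17886 genes passed this fold. The E15.5 mandibular library had 2 and 4 of 7 members, against 13.3% and 17.1% of 16587 genes. The P1 maxillary library had 3 and 5 of 9, against 12.2% and 23.1% of 18404 genes, and the P1 mandibular library 3 and 5 of 9, against 12.5% and 23.8% of 18269 genes. Median log2 ratios of epithelium to mesenchyme over the members were -1.16, -1.19, -1.72 and -3.05, where the medians over all genes were -0.07, 0.00, -0.06 and -0.07. No test over the 4 libraries was run.

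Fgf10 had the steepest ratios of the E15.5 maxillary library on the mesenchymal side, with 15 UMIs in epithelium against 3221 in mesenchyme, a 46.7-fold difference (95% interval 28.3 to 83.5). It was at least 26.2-fold higher in mesenchyme in the E15.5 mandibular library, where the epithelium had none (the near end of the 95% interval), and 190-fold and 133-fold higher at P1. Fgf3 was 8.69-fold higher in mesenchyme in the E15.5 maxillary library (3 against 120 UMIs), and 217-fold and 107-fold higher at P1. Thinned to 2000 UMIs the E15.5 maxillary log2 ratio was -0.61 in place of -3.12, under 2-fold, and with shared barcodes dropped from both P1 libraries the P1 maxillary one was -2.06 in place of -7.76. In the E15.5 mandibular library the Fgf3 ratio of 2.29 rested on 1 epithelial UMI, and its interval on the log2 scale (-6.53 to 1.37) spanned 0 and it turned to 0.72 with levels as means over cells. The epithelial Fgf3 UMIs of both E15.5 libraries lay in knot-like cells, in 3 of 28 and 1 of 41. Fgf7 was 25.2-, 31.8-, 25.7- and 93.5-fold higher in mesenchyme, and Fgf18 10.8-, 8.72-, 12.1- and 34.0-fold. Thinning moved the E15.5 mandibular log2 ratio of Fgf7 from -4.99 to -0.87, under 2-fold, and that of Fgf18 from -3.12 to -1.26.

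On the epithelial side Fgf9, a ligand that reaches mesenchymal receptors, was 10.5-, 20.1-, 22.8- and 24.3-fold higher in epithelium. Fgf20 was 17.1-fold higher in the E15.5 maxillary library and 8.75-fold in the E15.5 mandibular library, but 2.45-fold (interval 1.02 to 5.71) and 3.48-fold (1.59 to 7.80) at P1, the former under 2-fold (log2 ratio 0.80) with a minimum of 2000 UMIs. Fgf4 was 47.5-fold higher in the epithelium of the E15.5 maxillary library (31 against 3 UMIs). In the E15.5 mandibular library its 17 and 1 UMIs were too few for a ratio, and at P1 its log2 ratios of 0.16 and 0.68 were under 2-fold. Fgf1 was 3.12-fold and 2.55-fold higher in epithelium at P1, whereas at E15.5 its log2 ratio was 0.80 in the maxillary library and -0.70 in the mandibular one. Fgf8 was at least 2.53-fold higher in the mesenchyme of the P1 maxillary library, by the near end of the interval. In the P1 mandibular library it was 8.26-fold higher there (1.34 to 341, from 1 epithelial UMI), and the filter on detected genes brought the log2 ratio to -0.88. These mesenchymal levels, 0.547 and 0.404 CPM, lay below what 0 UMIs in the immune-like and erythroid-like cells allow, 1.18 and 0.703 CPM.

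**Figure D2:**
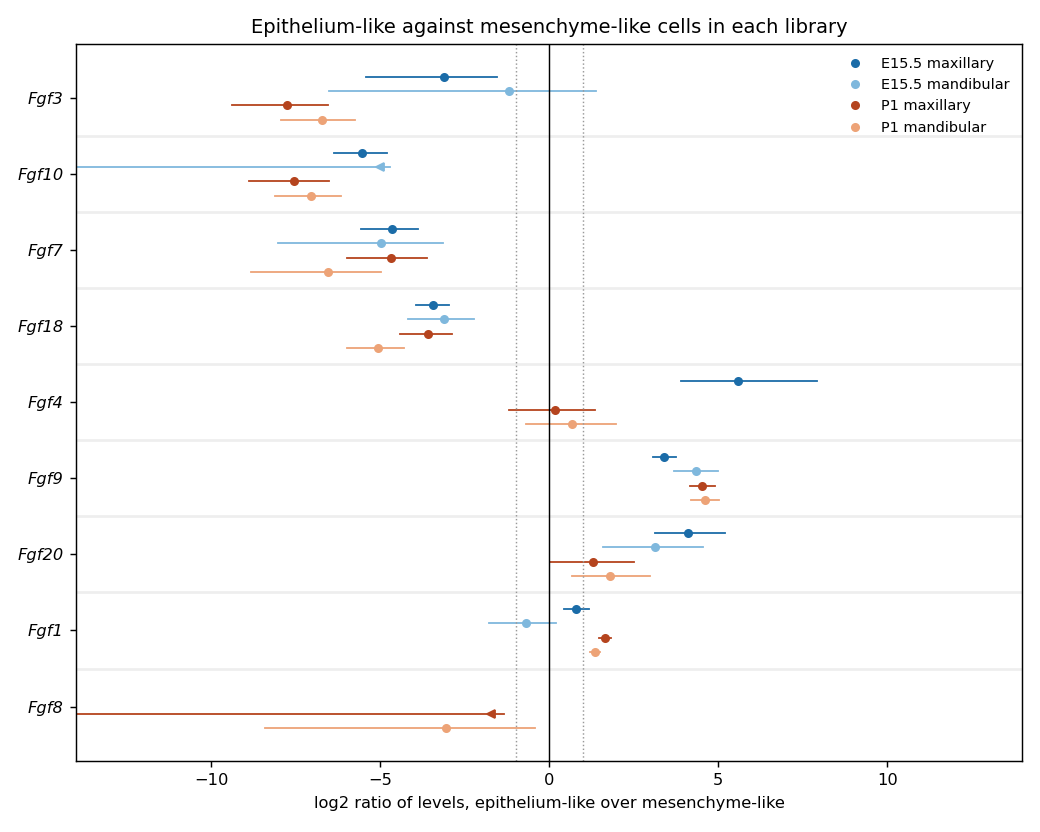
Log2 ratio of the level in epithelium-like to that in mesenchyme-like cells for each member in each library; bars are 95% intervals for counting error, arrows are bounds where 1 class had no UMI, and dotted lines mark a 2-fold difference. Fgf9 and Fgf20 lay to the epithelial side in all 4 libraries, and Fgf3, Fgf7, Fgf10 and Fgf18 to the mesenchymal side, with the E15.5 mandibular Fgf3 interval crossing 0. Among P1 maxillary cells with shared barcodes alone, Fgf20 was the higher in mesenchyme, from few UMIs.

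Fgf3, a papilla ligand that signals to the inner dental epithelium, was nearly confined to papilla-like and odontoblast-like cells. In papilla-like cells its level was 29.3 CPM (24.0 to 35.4) in the E15.5 maxillary, 39.3 (27.7 to 54.2) in the E15.5 mandibular, 81.7 (78.9 to 84.7) in the P1 maxillary and 67.8 (65.0 to 70.7) in the P1 mandibular library. Both P1 intervals lay above both E15.5 intervals. The papilla-like cells held 87.1%, 86.0%, 83.6% and 96.8% of all Fgf3 UMIs of their library. Mesenchyme that was neither papilla nor another named type had 0.0756, 0.0911, 0.497 and 0.778 CPM, and the immune-like and erythroid-like cells 0, 0.107, 0.957 and 1.14 CPM. The background interval of each library reached above the level in other mesenchyme, up to 0.421, 0.598, 2.80 and 2.49 CPM. Follicle-like cells of the E15.5 maxillary library had 9 Fgf3 UMIs in 4 cells, a level of 1.84 CPM (0.840 to 3.49), which is above that background.

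The share of papilla-like cells with at least 1 Fgf3 UMI was 14.8%, 13.9%, 39.7% and 40.6%. With every cell thinned to 2000 UMIs the shares were 6.25% of 256 cells, 5.06% of 79, 10.9% of 2761 and 11.3% of 2310. The P1 shares were the higher with and without thinning. In the E15.5 mandibular library 17 of the 37 papilla UMIs of Fgf3 came from 1 cell. Without the shared barcodes, the P1 maxillary papilla was left with 30 cells and 12 Fgf3 UMIs, a level of 76.5 CPM (39.5 to 134), beside 81.8 CPM in the 2734 cells with shared barcodes.

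In odontoblast-like cells of P1, the cells that lay down dentin, the libraries stood apart. The P1 maxillary library had 558 Fgf3 UMIs and 90.6 CPM (83.2 to 98.4), with a UMI in 205 of 302 cells. The P1 mandibular library had 35 Fgf3 UMIs and 12.3 CPM (8.55 to 17.1), with a UMI in 25 of 138 cells. Fgf10 differed the same way, with 150 CPM (140 to 160) in the maxillary and 18.6 CPM (13.9 to 24.3) in the mandibular odontoblast-like cells. Those of the maxillary library were led by Bglap, Dmp1, Ifitm5 and Phex and those of the mandibular library by Dmp1, Bglap and Phex. Of the 6 markers used for the name, the most abundant was Cox4i2 in the maxillary library and Dspp, the main dentin matrix gene, in the mandibular library, and the markers summed to 2492 and 6378 CPM. In the P1 mandibular library a papilla-like cluster of 452 cells led by Smpd3, Ifitm5 and Notum had 118.5 CPM of Fgf3 and 168.2 CPM of Fgf10. The odontoblast-like cells thus need not be the same stretch of the lineage in both libraries, and their difference was not tested.

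Within the P1 papilla the level of Fgf3 differed widely between clusters. In the P1 maxillary library it was 163.6 CPM in 250 cycling cells led by Ube2c and Top2a and 138.5 CPM in 814 cells led by Stbd1, Omd and Enpp6. It was 33.5 CPM in 1211 cells led by Grik1 and Rspo4, and 9.7 CPM in 489 cells led by Gabrg3, Pappa and Smoc2. In the P1 mandibular library cycling papilla cells (295) had 117.9 CPM, a Grik1-led cluster (484 cells) 48.7 CPM, a cluster led by Fabp7 and Stbd1 (528 cells) 45.4 CPM and a Gabrg3-led cluster (448 cells) 12.0 CPM. In both libraries the cycling cells were thus high and the Gabrg3-led cells low.

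Fgf10, which drives growth of the dental epithelium, was the most abundant member and spread more widely through the mesenchyme. Its papilla level was 85.4, 149, 68.9 and 75.1 CPM, and that of other mesenchyme 67.7, 46.0, 64.7 and 70.6 CPM, so that papilla and other mesenchyme lay close together except in the E15.5 mandibular library. The other mesenchyme held 80.4% and 80.5% of the Fgf10 UMIs at E15.5 but 19.5% and 27.7% at P1, where the papilla held 55.1% and 68.2%. Papilla-like cells made up more of the mesenchyme in the P1 libraries, as the cell numbers above show. A UMI of Fgf10 was found in 44.7%, 67.1%, 30.0% and 35.3% of papilla-like cells, and after thinning in 14.5%, 25.3%, 9.20% and 10.7%.

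Follicle-like cells and muscle carried less Fgf10 than the papilla. The follicle-like cells had 18.8 CPM in the E15.5 maxillary, 14.2 in the P1 maxillary and 19.1 in the P1 mandibular library, and muscle 14.1, 16.9, 9.17 and 15.4 CPM. Immune-like and erythroid-like cells had 1.71, 0.322, 3.19 and 1.91 CPM. A cluster of 245 other-mesenchyme cells of the E15.5 maxillary library, led by Sntg1, Kcnd2 and Mfap5, reached 222.9 CPM. Cells with barcodes of their own in the P1 maxillary library had 108 CPM of Fgf10 in 30 papilla-like cells and 55.1 CPM in other mesenchyme, against 68.8 and 77.9 CPM in cells with shared barcodes.

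The clusters of the P1 papilla differed for Fgf10 too. In the P1 maxillary library Fgf10 was at 153.5 CPM in the cycling cells, 100.3 CPM in the Stbd1-led cells, 63.3 CPM in the Gabrg3-led cells and 15.1 CPM in the Grik1-led cells. The order of the Gabrg3-led and the Grik1-led cells was thus the reverse of that for Fgf3. The P1 mandibular library had the same reversal, with Fgf10 at 53.3 CPM in the Gabrg3-led and 21.8 CPM in the Grik1-led cells.

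Fgf3 and Fgf10 were often found in the same papilla cells. A UMI of each was found in 28 of 257, 9 of 79, 494 of 2764 and 469 of 2317 papilla-like cells, where the product of the shares gives 17.0, 7.38, 329 and 331 cells. Fgf10 was present in 73.7%, 81.8%, 45.0% and 49.9% of the cells with Fgf3 and in 39.7%, 64.7%, 20.1% and 25.3% of the cells without it. Cells with Fgf3 were also deeper in 3 of the 4 libraries, with medians of 14741 against 11012.5 UMIs (E15.5 mandibular), 14316 against 11484.5 (P1 maxillary) and 15813 against 12057 (P1 mandibular). In the E15.5 maxillary library they were shallower, 13179 against 13845 UMIs. The part of depth in the overlap was not tested.

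Fgf7 and Fgf18, ligands of connective tissue and forming bone, showed the reverse distribution to Fgf3 within the mesenchyme. Fgf7 was at 31.6 (29.9 to 33.4), 31.7 (29.8 to 33.6), 39.7 (36.4 to 43.1) and 42.3 (39.0 to 45.8) CPM in other mesenchyme, but at 10.9, 1.06, 0.374 and 2.84 CPM in papilla-like cells. Fgf18 was at 40.1, 43.6, 38.3 and 60.0 CPM in other mesenchyme and at 11.1, 14.9, 2.35 and 6.17 CPM in papilla-like cells. The background in immune-like and erythroid-like cells was 0.343, 0.107, 3.83 and 0.762 CPM for Fgf7 and 0.343, 0, 2.23 and 0.572 CPM for Fgf18, so the P1 maxillary papilla level was below background for Fgf7 and close to it for Fgf18. In P1 maxillary other mesenchyme, 2838 cells with barcodes of their own had 31.7 CPM of Fgf7 and 24.8 CPM of Fgf18, and 573 cells with shared barcodes 50.6 and 56.9 CPM.

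Much of the papilla's remaining Fgf7 and Fgf18 in the P1 mandibular library lay in a cluster of 110 cells led by Gdf10, which had 65.7 CPM of Fgf7, 93.3 CPM of Fgf18 and 151 CPM of Fgf10 and no UMI of Fgf3. Without it the other 2207 papilla-like cells had 0.757 CPM of Fgf7, 3.28 of Fgf18, 72.6 of Fgf10 and 70.0 of Fgf3. This cluster met the papilla naming rule but carried the ligand pattern of the surrounding mesenchyme.

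Tendon-like cells carried Fgf18 as well, at 44.6, 21.9 and 37.6 CPM in the E15.5 maxillary, E15.5 mandibular and P1 mandibular libraries. Their Fgf7 level was 29.5, 6.13 and 4.88 CPM. Follicle-like cells had 12.2, 10.1 and 22.9 CPM of Fgf7 in the E15.5 maxillary, P1 maxillary and P1 mandibular libraries. The highest Fgf7 of the E15.5 mandibular library, 111.9 CPM, was found in 125 cells led by Kctd16, Dcc and Rspo3. In other mesenchyme, cells with UMIs of both Fgf7 and Fgf10 numbered 335, 209, 87 and 151, where the product of the shares gives 264, 139, 58.4 and 101. Fgf7 and Fgf18 occurred together in 258, 259, 81 and 171 cells, where it gives 223, 190, 42.9 and 143. Fgf10 and Fgf18 did so in 402, 261, 116 and 140 cells, where it gives 326, 216, 60.7 and 140, so that the P1 mandibular library had no excess. Cells with Fgf7 were deeper in all 4 libraries, most so in the P1 maxillary library (medians of 5669 against 2763.5 UMIs), and the part of depth was not tested.

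**Figure D3:**
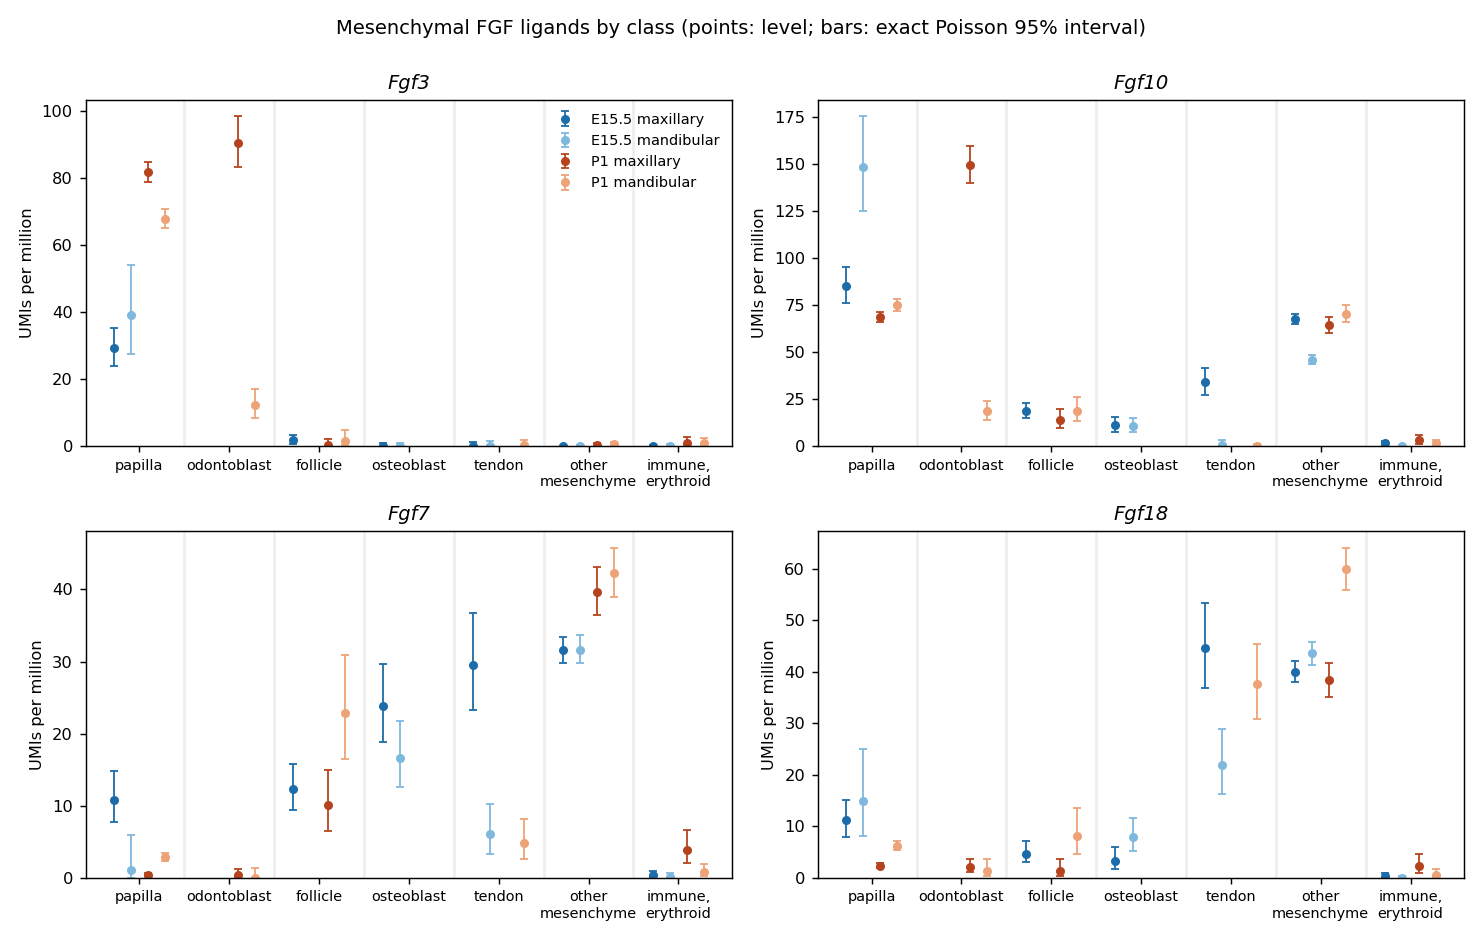
CPM of Fgf3, Fgf10, Fgf7 and Fgf18 in mesenchymal classes and in immune-like and erythroid-like cells of the 4 libraries; points are levels and bars 95% Poisson intervals for counting error. Fgf3 was high in papilla-like cells and near 0 in other mesenchyme, Fgf7 the reverse, and Fgf10 high in both.

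Fgf4, a ligand of the enamel knot, was found almost entirely in knot-like cells at E15.5. The E15.5 maxillary knot-like cells had 31 UMIs and 83.2 CPM (56.5 to 118), and the E15.5 mandibular ones 17 UMIs and 18.8 CPM (11.0 to 30.1). At P1 the knot-like cells had 8 UMIs and 4.65 CPM (2.01 to 9.17) in the maxillary and 9 UMIs and 9.55 CPM (4.37 to 18.1) in the mandibular library. The knot-like cells held 91.2% and 94.4% of the Fgf4 UMIs of the E15.5 libraries and 25.0% and 37.5% of those of P1.

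Few cells stood behind the E15.5 levels of Fgf4. In the maxillary library 6 of 28 knot-like cells had a UMI, and 1 cell held 21 of the 31. In the mandibular library 2 of 41 had a UMI, and 1 cell held 14 of the 17. All 17 fell in the subcluster of 29 cells with 3 knot markers and none in the 12 cells with 5. At P1, single Fgf4 UMIs appeared in the papilla, 20 UMIs in 20 cells of the maxillary library (0.534 CPM, 0.326 to 0.825) and 15 UMIs in 15 cells of the mandibular library (0.458 CPM). At E15.5 the papilla had none, which allows up to 1.00 and 3.92 CPM, and the immune-like and erythroid-like cells had none in any library, which allows up to 1.18 CPM in the P1 maxillary and 0.703 CPM in the P1 mandibular library. The 20 UMIs of the P1 maxillary papilla lay in cells with shared barcodes. Of the papilla cells with Fgf4 at P1, 13 of 20 and 9 of 15 also had Fgf3, beside 39.5% and 40.4% of those without Fgf4. Cells with Fgf4 were deeper, with medians of 14596.5 against 12634 and 18092 against 13433.5 UMIs, and the part of depth was not tested. The papilla level of Fgf4 was thus within what a count of 0 in the background cells allows at this depth.

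Fgf9 was the most abundant ligand of the knot-like cells, with 117 UMIs and 314 CPM (260 to 376) in the E15.5 maxillary library. It reached 35.4 CPM (24.2 to 50.0) in the E15.5 mandibular, 110 CPM (94.8 to 127) in the P1 maxillary and 351 CPM (314 to 391) in the P1 mandibular library. A UMI was found in 21 of 28, 14 of 41, 62 of 139 and 67 of 86 cells. The first and last library thus lay close together, and the E15.5 mandibular library far below both, with no order by stage or jaw. Every knot-like cell with Fgf4 also had Fgf9, namely 6 of 6, 2 of 2, 4 of 4 and 6 of 6, whereas Fgf9 was present in 68.2%, 30.8%, 43.0% and 76.2% of those without Fgf4.

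Outside the knot Fgf9 was lower but still present in the epithelium. Ameloblast-like cells, the enamel-forming cells, had 26.3 and 13.7 CPM at P1, and other epithelium 10.7, 14.3, 14.4 and 6.07 CPM, where the E15.5 mandibular value was 5 UMIs of 1 cell. Glia had 12.8, 14.5, 12.8 and 20.5 CPM, and muscle 14.9, 1.94, 9.17 and 1.99 CPM, the maxillary value being the higher at both stages. The papilla had 1.36, 1.06, 0.160 and 0.672 CPM and odontoblast-like cells 0, where the immune-like and erythroid-like cells had 0.114, 0.429, 0.638 and 0.762 CPM. Epithelial cells with barcodes of their own in the P1 maxillary library had 32.4 CPM (24.9 to 41.5) of Fgf9 over 562 cells, beside 26.1 CPM in the whole class.

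Fgf20, a knot ligand related to Fgf9, was at 32.2 CPM (16.6 to 56.2) in the E15.5 maxillary knot-like cells, from 12 UMIs in 7 cells, of which 1 cell held 6. These cells held 21.8% of the Fgf20 UMIs of the library, other epithelium 38.2%, and 1 suprabasal cell 14.5%. In the E15.5 mandibular ones it was at 5.53 CPM (1.80 to 12.9), from 5 UMIs in 3 cells. At P1 a single UMI (0.582 CPM) and 2 UMIs (2.12 CPM) were found. All of the E15.5 knot-like cells with Fgf20 also had Fgf9, 7 of 7 and 3 of 3. In other epithelium Fgf20 was at 2.24, 2.86 (1 UMI), 0.828 and 0.802 CPM. The P1 maxillary value joined 4.81 CPM (8 UMIs) in cells with barcodes of their own and 0.109 CPM (1 UMI) in cells with shared barcodes.

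Fgf1, a ligand without a secretion signal that binds all FGF receptors, was the epithelial member that was higher at P1. Other epithelium had 8.31, 2.86, 31.6 and 56.7 CPM, with a UMI in 193 of 1088 and 235 of 479 cells at P1. Ameloblast-like cells had 24.9 and 27.2 CPM and knot-like cells 10.7, 7.74, 40.1 and 43.5 CPM. The highest values within the P1 epithelium belonged to a subcluster led by Mindy4, Odam, Acta2 and Pi15, with 69.0 CPM and a UMI in 64 of 133 cells in the maxillary library and 82.3 CPM and a UMI in 109 of 168 cells in the mandibular library. In P1 maxillary other epithelium Fgf1 was at 20.4 CPM (14.2 to 28.6) in 487 cells with barcodes of their own and 33.7 CPM in 601 cells with shared barcodes. A matching pair of subclusters, clustered without FGF genes in separate libraries, thus held the most Fgf1 in both.

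In the mesenchyme Fgf1 was at 3.53, 11.7, 10.4 and 15.7 CPM in papilla-like cells, 16.2 and 24.6 CPM in P1 odontoblast-like cells and 4.41, 7.62, 5.39 and 16.8 CPM in other mesenchyme. Glia had 17.8, 9.64, 15.4 and 18.6 CPM. Immune-like and erythroid-like cells had at most 0.572 CPM. Fgf1 was thus above that background in epithelial, mesenchymal and glial classes alike.

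**Figure D4:**
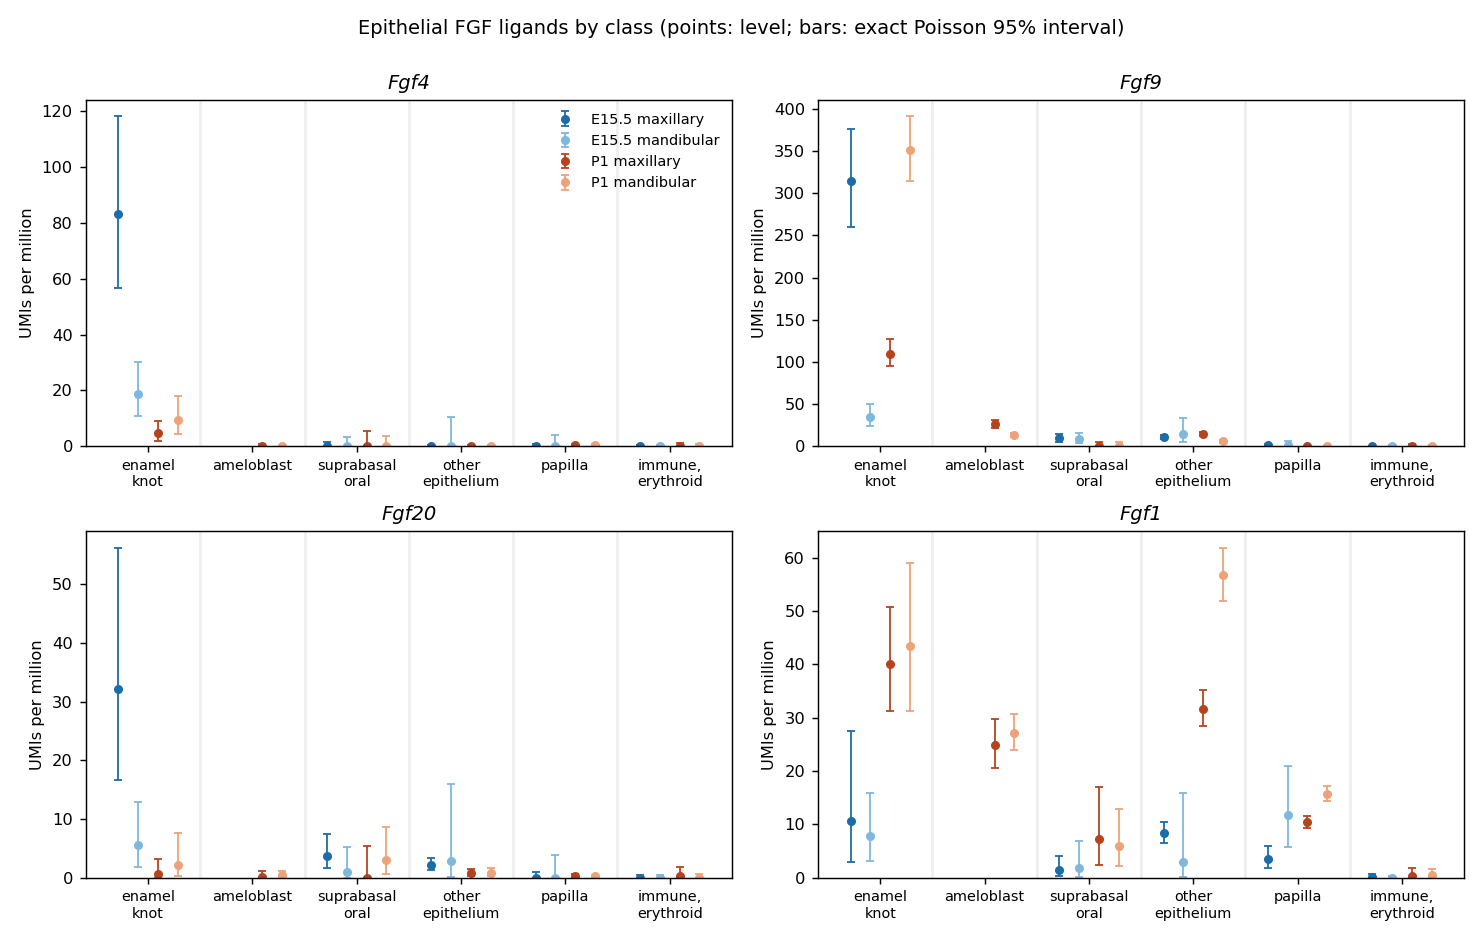
CPM of Fgf4, Fgf9, Fgf20 and Fgf1 in epithelial classes, papilla-like cells and immune-like and erythroid-like cells of the 4 libraries; points are levels and bars 95% Poisson intervals for counting error. Fgf4 and Fgf20 were highest in knot-like cells of the E15.5 maxillary library, Fgf9 in knot-like cells of the E15.5 maxillary and the P1 mandibular library, and Fgf1 in P1 epithelium.

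Fgf8, which marks the tooth-forming oral epithelium before the stages sampled, was rare throughout, with 14, 16, 41 and 24 UMIs per library. Knot-like cells had none in any library, which allows up to 9.90, 4.08, 2.15 and 3.91 CPM. The P1 papilla had 26 UMIs in 24 cells (0.694 CPM) and 20 UMIs in 19 cells (0.611 CPM). All 26 of the P1 maxillary papilla lay in cells with shared barcodes. Immune-like and erythroid-like cells had none, which allows up to 1.18 and 0.703 CPM at P1. Tendon-like cells of the E15.5 mandibular library had 10 UMIs in 9 cells, a level of 4.38 CPM (2.10 to 8.06), and held most of the 16 UMIs of that library.

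The second comparison set P1 against E15.5 within each tissue layer. In the mesenchyme Fgf3 was the member that differed most, 27.4-fold higher at P1 in the maxillary libraries (interval 22.8 to 33.1; 2.19 against 60.1 CPM) and 42.2-fold in the mandibular libraries (30.9 to 59.2; 0.989 against 41.7 CPM). Papilla-like cells were 257 of 4971 and 79 of 2709 mesenchyme-like cells at E15.5 but 2764 of 6945 and 2317 of 4196 at P1. Within the papilla-like cells alone the levels, given above, differed far less. In the maxillary mesenchyme 4 of 9 members were at least 2-fold higher at P1 and 2 at E15.5, against 9.92% and 7.92% of 19057 genes. In the mandibular mesenchyme 2 and 1 of 8 were, against 12.0% and 6.22% of 18576 genes. The 4 maxillary members higher at P1 included the sparse Fgf4 and Fgf8.

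The other mesenchymal members above 2-fold were smaller differences. Fgf1 was 2.31-fold and 2.20-fold higher at P1 in the maxillary and mandibular libraries. The mandibular log2 ratio was 0.98 with means over cells and 0.90 with thinning. Fgf7 was 2.78-fold and 2.01-fold higher at E15.5. The maxillary ratios of Fgf1 and Fgf7 each kept their direction and 2-fold in 10 of 13 alternatives. The 13 include dropping the minimum of UMIs, which cannot change a ratio. Fgf18 was 3.06-fold higher at E15.5 in the maxillary libraries, with a log2 ratio of -0.80 in the mandibular ones. With shared barcodes dropped from both P1 libraries the maxillary Fgf18 ratio was -0.66 on the log2 scale, under 2-fold, and the mandibular Fgf7 ratio, at the edge of 2-fold, kept it in 9 of 13 alternatives. Fgf4 (7.25-fold, from 3 E15.5 UMIs) and Fgf8 (2.99-fold) were higher at P1 in the maxillary mesenchyme. Their P1 levels of 0.398 and 0.547 CPM lay below the 1.18 CPM that 0 UMIs in the immune-like and erythroid-like cells allow. Fgf10 differed by less than 2-fold, with log2 ratios of 0.32 and 0.64.

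Fgf7 and Fgf18 gave a different picture inside other mesenchyme, where Fgf7 was no lower at P1 (39.7 and 42.3 against 31.6 and 31.7 CPM) and Fgf18 was 38.3 and 60.0 against 40.1 and 43.6 CPM. In P1 maxillary mesenchyme-like cells with barcodes of their own, Fgf3 was at 1.64 CPM, where 30 of 3147 cells were papilla-like, beside 70.5 CPM in the 3798 cells with shared barcodes. With the shared barcodes removed from both P1 libraries and the cells clustered again, the maxillary P1 to E15.5 log2 ratio of Fgf3 in mesenchyme was -0.05 in place of 4.78, that of Fgf1 -0.08 in place of 1.21 and that of Fgf7 0.21 in place of -1.47. The maxillary stage differences in these genes therefore rested on the cells with shared barcodes, while the mandibular ones were free of them.

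In the epithelium Fgf1 was the member higher at P1 and Fgf4, Fgf18 and Fgf20 were lower in both jaws, the maxillary Fgf20 through cells with shared barcodes. Of the members with at least 20 UMIs, 1 of 7 was at least 2-fold higher at P1 and 5 at E15.5 in the maxillary epithelium, against 10.4% and 11.5% of 15684 genes. In the mandibular epithelium 1 and 3 of 5 were, against 11.7% and 12.7% of 14777 genes. The 5 maxillary members higher at E15.5 included Fgf7 (13 UMIs at E15.5 against 7 at P1) and Fgf10 (15 against 7). Both were at 0.387 CPM in the P1 maxillary epithelium, below the level of immune-like and erythroid-like cells given above. Fgf10 was below it at E15.5 too, at 1.26 CPM. The median log2 ratios over the members were -1.70 and -1.86 in maxillary and mandibular epithelium and 0.32 and 0.10 in the mesenchyme, beside medians over all genes between -0.02 and 0.02. The maxillary epithelial median was the ratio of Fgf10.

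Fgf1 was 4.16-fold higher at P1 in the maxillary epithelium (interval 3.30 to 5.29) and 9.13-fold in the mandibular (4.94 to 19.1). Fgf4 was 5.89-fold (2.65 to 14.8) and 16.7-fold (7.04 to 42.5) higher at E15.5. As 1 cell held 21 of the 31 maxillary and 1 cell 14 of the 17 mandibular E15.5 UMIs of Fgf4, these intervals are too narrow, and without that cell under 20 UMIs remained and no ratio was formed. Fgf20 was 5.66-fold and 3.64-fold higher at E15.5. With shared barcodes dropped from both P1 libraries the maxillary log2 ratio of Fgf20 was -0.17 in place of -2.50, with 4.12 CPM in P1 epithelial cells with barcodes of their own. Fgf18, far below its mesenchymal level in this layer, was 3.42-fold and 6.80-fold higher at E15.5, but its maxillary log2 ratio was -0.57 with shared barcodes dropped from both P1 libraries. Fgf9 was close to equal, with log2 ratios of 0.39 and 0.35. The mandibular E15.5 epithelium held 91 cells, 41 of them knot-like, against 28 of 698 in the maxillary library, so that the epithelial classes did not have the same composition.

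**Figure D5:**
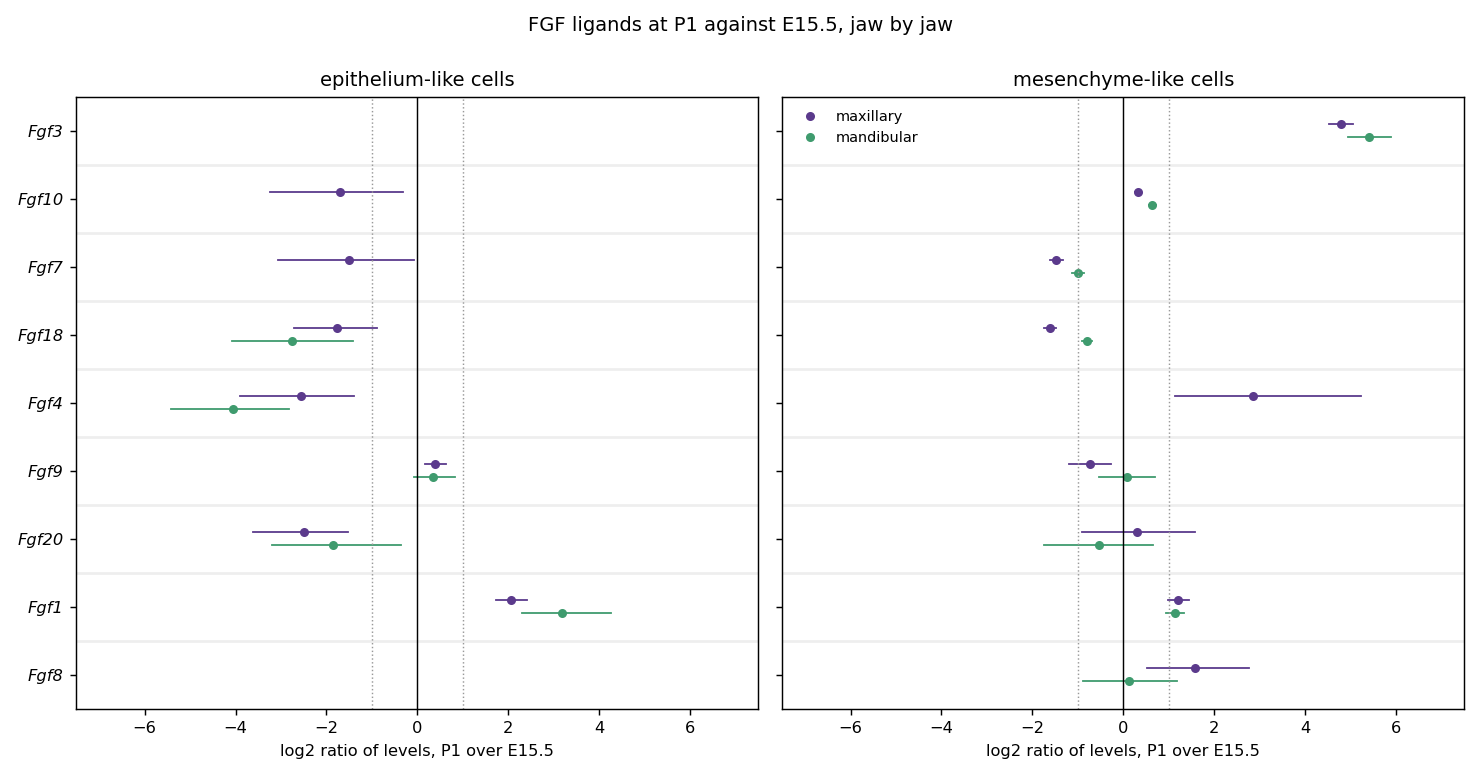
Log2 ratio of the P1 to the E15.5 level of each member within epithelium-like and mesenchyme-like cells of each jaw; bars are 95% intervals for counting error, dotted lines mark a 2-fold difference, and members too sparse for a ratio have no point. Fgf3 stood out in mesenchyme (4.78 and 5.40), Fgf1 was higher at P1 in epithelium (2.06 and 3.19), and Fgf4 and Fgf20 were lower there.

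The third comparison set the jaws against each other at E15.5. In the epithelium 0 of 5 members were at least 2-fold higher in the maxillary library and 1 in the mandibular one, against 5.81% and 4.88% of 14029 genes. That member was Fgf4, 2.82-fold higher (interval 1.46 to 5.26) in the mandibular epithelium from 17 UMIs against 31 in the maxillary, although within knot-like cells its level was the higher in the maxillary library. With classes from each cell's own markers the log2 ratio of maxillary to mandibular turned from -1.50 to 0.72, and no call remained without the cell that held the most Fgf4 UMIs. In the mesenchyme 1 and 1 of 8 members passed, against 6.19% and 3.68% of 18331 genes. Fgf3 was 2.22-fold higher in the maxillary mesenchyme (1.54 to 3.26), although within papilla-like cells its level was 29.3 CPM in the maxillary and 39.3 CPM in the mandibular library, with intervals that overlap. The Fgf3 call was lost without doublet removal (log2 ratio 0.70) and with a minimum of 2000 UMIs (0.77). Fgf8 was 2.03-fold higher in the mandibular mesenchyme (0.852 to 5.05), an interval that includes 1. Log2 ratios of Fgf9 in epithelium (0.00) and of Fgf10 in mesenchyme (0.49) were under 2-fold. At P1 the jaws were set side by side only, as above.

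Receptors and response genes were listed beside the ligands. Fgfr2, the receptor of Fgf3, Fgf7 and Fgf10 in its epithelial isoform, was the receptor that was at least 2-fold higher in epithelium in all 4 libraries (427 against 200, 360 against 171, 344 against 151 and 328 against 135 CPM), with isoforms not told apart by 3' counts. Within the mesenchyme, follicle-like cells had 404 CPM of Fgfr2 in the E15.5 maxillary, 711 in the P1 maxillary and 846 in the P1 mandibular library, above the epithelial level at P1. Of the 5 receptor genes, 1 was at least 2-fold higher in epithelium in each library, and 2, 0, 3 and 2 were higher in mesenchyme. Over all genes the shares were 13.0%, 13.3%, 12.2% and 12.5% for epithelium and 20.6%, 17.1%, 23.1% and 23.8% for mesenchyme. Fgfr1 was at 69.6, 136, 418 and 454 CPM in epithelium and 189, 132, 274 and 273 CPM in mesenchyme.

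Feedback and response genes, which FGF signaling is known to induce, gave no fixed side. Of 10, 3, 3, 1 and 0 were at least 2-fold higher in epithelium and 1, 2, 1 and 5 in mesenchyme. Both P1 maxillary counts were below the shares over all genes, given above for the receptors. At E15.5 the phosphatase Dusp6 and the transcription factors Etv4 and Etv5 were those higher in epithelium, with log2 ratios of 1.30, 1.61 and 1.34 (maxillary) and 1.49, 1.49 and 1.29 (mandibular). Spry4, an inhibitor of the pathway, was higher in mesenchyme in all 4 libraries (log2 ratios of -3.48, -3.74, -1.72 and -3.60). In knot-like cells Etv4 was at 69.8, 52.0, 75.6 and 99.7 CPM and Spry2 at 161, 46.4, 41.3 and 87.0 CPM, and in P1 odontoblast-like cells Etv5 was at 75.0 and 127 CPM.

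Of 13 other FGF ligands, those with at least 20 UMIs numbered 9, 9, 9 and 10. Of these 0, 1, 1 and 2 were at least 2-fold higher in epithelium and 6, 5, 4 and 5 in mesenchyme. The epithelial counts were close to the shares over all genes, given above for the receptors. Fgf13, which acts inside the cell and binds no FGF receptor, was the most abundant of them in mesenchyme (65.1, 29.6, 47.9 and 35.8 CPM). Fgf2 was at 37.0, 28.4, 19.7 and 16.8 CPM there. Fgf16, a relative of Fgf9 and Fgf20, was at 8.08 and 9.20 CPM in the epithelium at P1, with log2 ratios of 3.34 and 1.38 over mesenchyme. At E15.5 its ratios were -1.86 (-3.21 to -0.77) and -1.67 (-4.73 to 0.22), on the mesenchymal side.

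Among 7 regulators known to act on FGF ligands in the tooth, 2, 3, 2 and 2 were at least 2-fold higher in epithelium and 3, 2, 3 and 3 in mesenchyme. The shares over all genes are those given above for the receptors. Msx1, which is needed for Fgf3 in dental mesenchyme, was at 406, 270, 212 and 169 CPM in papilla-like cells. Runx2 was at 756, 1055, 205 and 274 CPM, Pax9 at 212, 328, 81.9 and 63.2 CPM, and Lef1, a mediator of Wnt signaling upstream of Fgf4, at 257, 270, 46.0 and 66.1 CPM. All 4 were thus higher in the E15.5 than in the P1 papilla-like cells, but Msx1 and Pax9 were among the markers that named these cells. In knot-like cells Lef1 was at 880, 76.3, 65.2 and 383 CPM.

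For each member with at least 100 UMIs, the 3 genes with the most similar pattern were found over 115 clusters of at least 30 cells and 18691 genes, as Pearson's r of log2(CPM + 1). Clusters of a library share their depth and free RNA, so r describes these clusters only. Fgf10 was closest to Gm16263 (r = 0.92), then C1qtnf7 (0.83) and Fbn2 (0.82). Gm16263 (chr13:118695292-118715396) is antisense to Fgf10 and lies wholly inside its span, and how counting assigned reads of the pair by strand is not given in the sources used here, so the likeness is uncertain. Fgf3 was closest to Gm50423 (0.83), Gm28960 (0.83) and Rspo4 (0.81), a Wnt agonist. Fgf18 was closest to Angptl1 (0.88), Sfrp2 (0.83), a secreted Wnt inhibitor, and Klf14 (0.83), and Fgf7 to Loxl1 (0.83), an enzyme of elastic fibers, AW551984 (0.80) and Tbx15 (0.79).

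Among the genes close to Fgf9 were Slain1 (0.70) and Dpysl5 (0.67), and Fgf1 was closest to Gprc5b (0.73), Vldlr (0.72) and Vangl2 (0.72). Fgf20 was closest to Prr15l (0.81), Tmprss2 (0.80) and Cldn7 (0.80), over 51 clusters with a UMI, and Fgf4 to Tafa4 (0.80), Spo11 (0.71) and 4930425O10Rik (0.70), over 17 clusters with a UMI, too few to carry weight. By ranks (Spearman), 10 of these closest genes were again among the closest 3 of their member. Fgf7 and Fgf10 kept all 3, Fgf9 kept 2, and Fgf1 and Fgf18 kept 1 each. Fgf3, Fgf4 and Fgf20 kept 0, so their likeness depends on the measure.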

How the data were processed

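The authors deposited, for each of the 4 libraries, whole-number UMI counts for every gene in every barcode, as Cell Ranger wrote them from 3' reads (Chromium v3.1) on mm10. Barcodes with at least 1000 UMIs were used, and barcodes also in the P1 maxillary library were left out of the P1 mandibular one. Barcodes with under 200 genes, with a mitochondrial share more than 3 median absolute deviations past that of their library, or among the top 0.8% of Scrublet doublet scores per 1000 barcodes (877, 439, 2550 and 1571) were removed.

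Each library was clustered on its own with scanpy 1.11.5 and leidenalg 0.10.2 (2000 variable genes without FGF, mitochondrial and ribosomal protein genes, 40 principal components, 15 neighbours, resolution 1, seed 0; 20 components for epithelium-like cells). Counts were scaled to 10000 per cell for this. This gave 30, 28, 34 and 30 clusters, of which 2, 5, 3 and 3 stayed unnamed. A cluster took a class whose markers lay on average at 0.5 or more of the way from the 10th percentile of clusters to the highest, with at least 3 detected. Thresholds for papilla, knot and the other subclasses were chosen once the clusters were known. The study's own cell names were not used here, so shares may differ from its own.

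Levels are UMIs per 1000000 UMIs of a class (CPM), with exact Poisson intervals. Shares have exact Clopper-Pearson and ratios exact binomial intervals (95%, scipy 1.17.1). Ratios needed 20 UMIs over both classes, "called" a fold of 2, and a class at 0 was set to 3 counts to decide the call, with the near end of the exact interval printed as the bound. With 1 library per group no p-values were computed. The scripts were tested on simulated data. The members, gene lists and comparisons were chosen with earlier results of these data known. Named genes are the members, fixed lists of the pathway, and the 3 genes closest to each member. For Fgf9, 1 of these 3 is not reported here. Promoters are from RefSeq (GRCm38.p6), with entries for 6 of 9 members, and positions from GENCODE M21.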

Additional observations from a re-analysis of the deposited data

Results flagged for a closer look

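For 3 members the direction of a comparison differed between jaws, and the differences were not tested. The log2 ratio of Fgf1 in epithelium to mesenchyme at E15.5 was 0.80 (0.42 to 1.16) in the maxillary library. In the mandibular one, with 91 epithelium-like cells, it was -0.70 (-1.77 to 0.20). Between P1 and E15.5 mesenchyme, the log2 ratio of Fgf9 was -0.73 (-1.19 to -0.28) in the maxillary and 0.082 (-0.53 to 0.70) in the mandibular libraries. That of Fgf20 was 0.31 (-0.91 to 1.57) and -0.54 (-1.74 to 0.66). In each pair at least 1 counting interval included 0, so opposite directions were not settled at this depth. The intervals of the jaws overlapped for Fgf9 and Fgf20. For Fgf1 they did not, so its ratios lay further apart than counting error.

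Members also had signal in cells outside the epithelium and the mesenchyme, above the level of immune-like and erythroid-like cells. Fgf1 was at 17.8 CPM in a glia-like cluster of the E15.5 maxillary library. In the P1 maxillary library Fgf9 was at 38.5 CPM and Fgf18 at 11.2 CPM in a neuron-like cluster of 602 cells led by Fstl5, Lhx2 and Calb2. An unnamed cluster of 881 cells led by Foxp2, Mia and Mgp had 44.2 CPM of Fgf7 and 13.0 CPM of Fgf18 in that library. Fgf20 was at 35.5 CPM in another unnamed cluster of 374 cells led by Aox2, Otx2os1 and Cyp2g1, none of which carried a shared barcode. Unnamed cells held 62.6% of the Fgf20 UMIs of the P1 maxillary library.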

How the results depend on the processing

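Of 51 ratios of at least 2-fold, 33 kept their direction and this fold under every one of 13 alternatives with a value for them, and 46 kept their direction. Counts of members at least 2-fold apart were 7, 6, 8 and 8 for epithelium against mesenchyme (4 to 7, 3 to 7, 6 to 9 and 6 to 9 over the alternatives). For P1 against E15.5 they were 6 in maxillary epithelium (1 to 7), 6 in maxillary mesenchyme (1 to 8), 4 in mandibular epithelium (1 to 6) and 3 in mandibular mesenchyme (1 to 4). Between jaws they were 1 in epithelium and 2 in mesenchyme (0 to 3 each).

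Directions reversed for 5 ratios (log2). With shared barcodes dropped from both P1 libraries, maxillary mesenchyme at P1 against E15.5 gave -0.048 for Fgf3, -0.080 for Fgf1 and 0.21 for Fgf7. With classes from each cell's own markers, the jaw ratio of Fgf4 in epithelium was 0.72. With levels as means over cells, Fgf3 in E15.5 mandibular epithelium to mesenchyme was 0.72.

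Counts moved by over 1.5 times as follows, and the cause was not tested beyond the lower counts that thinning leaves. Thinning to 2000 UMIs gave 4 (E15.5 maxillary) and 3 (E15.5 mandibular) for epithelium against mesenchyme, and by stage 1 (maxillary epithelium), 2 (maxillary mesenchyme), 1 (mandibular epithelium) and 1 (mandibular mesenchyme), with 0 between jaws in epithelium. Dropping shared barcodes from both P1 libraries gave 2 in maxillary epithelium and 1 in maxillary mesenchyme by stage. Without the cell with the most UMIs of a member the stage counts were 3 (maxillary epithelium) and 1 (mandibular epithelium), and 0 between jaws in epithelium. Own-marker classes gave 2 by stage in mandibular epithelium and 0 between jaws in epithelium, and the filter on detected genes 2 by stage in mandibular epithelium. Means over cells gave 1 by stage in mandibular mesenchyme. Between jaws, no doublet removal gave 3 in epithelium and 1 in mesenchyme, a minimum of 2000 UMIs 2 and 0, and no mitochondrial filter and resolution 2.0 each 1 in mesenchyme.

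No stage and jaw had a second library, so no replicate was left out. Tests over libraries, with tissue layers paired within a library or stages paired within a jaw, were not run. Depth limits Fgf4, Fgf8 and Fgf20, each with under 300 UMIs in all.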
